A study of Mus musculus with 20 samples.

Results

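Paqr8 and the other membrane progestin receptor genes were followed in mouse liver RNA across 5 groups of male mice. The genes were taken by symbol from the count table: Paqr8, Paqr7, Paqr5, Paqr9 and Paqr3 of the PAQR (progestin and adipoQ receptor) family, with Pgrmc1 and Pgrmc2, the progesterone receptor membrane component genes. Of these 7 genes, 6 are among the 16115 genes of the table, and Paqr5 is not analysed here. Paqr8 (ENSMUSG00000025931) lies on chromosome 1, Paqr7 (ENSMUSG00000037348) on 4, Paqr9 (ENSMUSG00000064225) on 9, Paqr3 (ENSMUSG00000055725) on 5, Pgrmc1 (ENSMUSG00000006373) on X and Pgrmc2 (ENSMUSG00000049940) on 3. Paqr8 was chosen by its higher counts with oxymetholone than in untreated mutants, and the set was built around it, so those values are given as a description with no test.

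The liver was collected after 18 months of treatment. Wild-type mice were untreated (4 libraries). Mice homozygous for the Fancd2 mutation (written d2-/- in the labels) were left untreated (3 libraries) or received metformin (3), oxymetholone (5) or the 2 drugs together (3). The mutated gene encodes a DNA repair protein of the Fanconi anaemia pathway, oxymetholone is a synthetic anabolic androgen, and metformin is a drug that lowers hepatic glucose output. The drugs were given to mutants only, so no effect of a drug in wild-type mice could be measured. The labels carry no ages, doses or replicate numbers and do not say that each library came from its own animal. The p-values therefore set differences against the spread between these libraries, which may not be that between animals. In whole liver, more cells of a type and more RNA per cell cannot be told apart.

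Steroid hormones act through nuclear receptors that bind DNA and also through receptors in membranes. Paqr7, Paqr8 and Paqr5 encode the membrane progestin receptors alpha, beta and gamma, which pass through the membrane several times and have been linked to inhibitory G proteins and lower cyclic AMP. Paqr9 is another gene of the PAQR family, and Paqr3, a Golgi protein, holds the kinase Raf at the Golgi. Pgrmc1 and Pgrmc2 are not PAQR proteins: they are small membrane proteins that bind haem, and Pgrmc1 interacts with cytochrome P450 enzymes of the liver.

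The bases before the start sites of Paqr8 are shown because Paqr8 separated the oxymetholone livers from the others while its relatives did not. RefSeq gives 2 start sites for the gene, both on the plus strand of chromosome 1 in the GRCm38.p6 assembly, and the 250 bases before each were read. Capitals mark matches to AGAACA, one arm of the palindrome bound by the glucocorticoid receptor, or to the GC box GGGCGG, on either strand.
Paqr8 start site 1, chr1:20890298-20890547: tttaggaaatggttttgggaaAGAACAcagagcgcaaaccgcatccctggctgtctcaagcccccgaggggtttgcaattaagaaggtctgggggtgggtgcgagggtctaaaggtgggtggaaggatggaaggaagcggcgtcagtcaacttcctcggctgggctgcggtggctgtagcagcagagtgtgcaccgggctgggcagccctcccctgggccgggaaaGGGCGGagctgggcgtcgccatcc
Paqr8 start site 2, chr1:20917590-20917839: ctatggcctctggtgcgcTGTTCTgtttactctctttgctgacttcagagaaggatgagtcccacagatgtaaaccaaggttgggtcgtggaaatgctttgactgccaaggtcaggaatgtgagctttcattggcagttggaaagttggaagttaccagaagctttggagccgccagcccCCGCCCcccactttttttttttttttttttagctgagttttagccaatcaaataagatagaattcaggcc
Each window held 1 AGAACA and 1 GC box, which do not overlap. AGAACA occurred in 16.1% of 32851 promoter windows of this length and the GC box in 32.7%, so neither is unusual. The full palindrome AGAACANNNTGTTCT was found in 3 of these windows, none of them before a gene of the set. AGAACA was also found before Pgrmc1, and not before Pgrmc2, Paqr7 or Paqr3. The first Paqr8 window was 62.0% G and C and the second 46.0%, against a median of 52.4% over all windows. These are letter matches and say nothing of binding.

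Library depth was 20.2 to 32.7 M counts. Hepatocyte markers (Alb, Apoa1, Ttr, Hnf4a, Cps1 and Cyp3a11) summed to between 38070 and 93590 CPM (counts per M of library total, scaled by the TMM method) in every library. A pair of libraries stood apart from the rest: their median correlation with the others was 0.926 for metformin replicate 3 and 0.916 for both-drugs replicate 3, against 0.942 to 0.964 in the other 16 libraries. In metformin replicate 3 the stellate and muscle markers summed to 219.7 CPM, against 11.8 to 109.9 in the other 17 libraries. In the metformin group Acta2 reached 119.0 CPM, Des 60.1 and Col1a1 26.3. Lrat reached 12.3 and Pdgfrb 4.39, below the highest livers with both drugs (57.6 and 6.56). The bile duct markers of that library summed to 654.4 CPM, against 34.9 to 1465 in the other 17. Krt19 reached 237.1 CPM and Muc1 154.7 in the metformin group, while Spp1 peaked in untreated mutants (1440). The targeted gene, Fancd2, is not analysed here, so the labels could not be checked against it.

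Paqr8 was low in every liver that had received no oxymetholone and high in every liver that had. The 4 wild-type libraries read 1.34, 1.89, 1.25 and 1.62 CPM. The 3 untreated mutants read 1.24, 1.80 and 1.25 CPM, and the 3 metformin livers 1.63, 4.92 and 2.29 CPM. These ranges overlapped one another, with metformin replicate 3 the highest of the 10. With oxymetholone alone the 5 values were 17.7, 26.9, 13.4, 28.9 and 27.0 CPM, and with both drugs the 3 values were 10.9, 9.94 and 13.1 CPM. None of the 8 livers with oxymetholone overlapped the 10 without it, a pattern shared by 0.0807% of all genes (13 genes). Since the gene was chosen for its rise with oxymetholone, this separation is given as a description. Between the oxymetholone groups, the highest liver with both drugs (13.14 CPM) lay just under the lowest with oxymetholone alone (13.38 CPM).

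**Figure D1:**
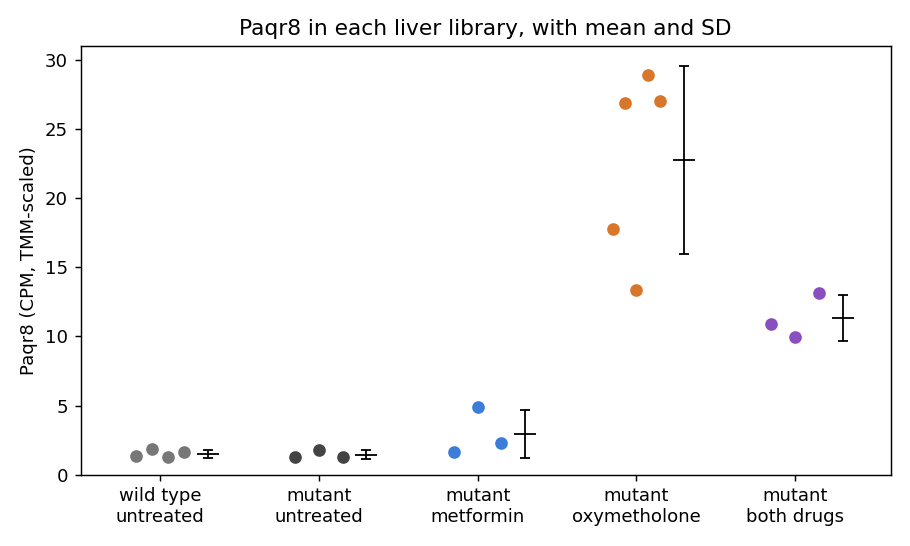
Paqr8 in each of the 18 liver libraries, in CPM on a linear axis from 0. Points are libraries and the bars beside them give the mean and SD of each group. The 8 libraries with oxymetholone lie between 9.94 and 28.9 CPM and the other 10 between 1.24 and 4.92.

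The group means of Paqr8 were 1.52 ± 0.288 CPM in wild type (SD, n = 4), 1.43 ± 0.323 in untreated mutants (n = 3), 2.95 ± 1.74 with metformin (n = 3), 22.8 ± 6.81 with oxymetholone (n = 5) and 11.3 ± 1.64 with both drugs (n = 3). In order of mean, oxymetholone came first, then both drugs, metformin, wild type and untreated mutants. The last 3 of these did not separate beyond their spread. The raw counts behind the values were 29 to 53 in wild type and 33 to 35 in untreated mutants, and 281 to 997 with oxymetholone, so the low groups carry the larger counting error. The ratio of the highest to the lowest group mean was 15.9, against 1.17 to 1.59 for the other genes of the set.

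Oxymetholone against the untreated mutant is the comparison that selected Paqr8, and here the mean rose by a log2 difference of 3.997 ± 0.393 (SE), which is 16.0-fold. The background for reading it is that edgeR called 7 genes in all in this comparison (0.0434% of those tested), and that 1.87% of genes had higher values with no overlap. The corresponding log2 difference of both drugs from the untreated mutant was 2.99 ± 0.39, against 3.90 ± 0.34 for oxymetholone from wild type. No test is attached to these values, because they share libraries with the comparison that chose the gene.

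The comparisons that share no library with it are both drugs against metformin, both drugs against wild type and metformin against wild type. The gene was chosen with the levels of all 5 groups known. The p-values of these comparisons set its difference against the spread between libraries and are not independent support for its rise. The first is both drugs against metformin alone. Paqr8 was higher in all 3 livers with both drugs (9.94 to 13.1 CPM) than in all 3 with metformin alone (1.63 to 4.92 CPM), and 2.24% of genes separated the same way. The log2 difference was 1.93 ± 0.37 (95% interval 1.21 to 2.66), or 3.82-fold. By edgeR's quasi-likelihood test the p was 7.59e-05, but the Benjamini-Hochberg adjusted p was 0.306, so the rise did not pass the threshold of 0.05. In this comparison edgeR called no gene at all (0% of those tested), although 552 genes had an unadjusted p under 0.05. DESeq2 called 10 genes and limma-voom with quality weights 3, Paqr8 among them in each tool. The authors' deposited table gave a log2 fold change of 1.98 with an adjusted p of 0.346. Without metformin replicate 3 the log2 difference was 2.52 and the adjusted p 0.0544.

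Both drugs against wild type gave a log2 difference of 2.89 ± 0.35 (7.41-fold), with an edgeR adjusted p of 0.00428. All 3 libraries with both drugs lay above all 4 of wild type, as 3.69% of genes did. In this comparison 4 genes were called (0.0248%). Paqr8 was chosen with these levels known, so its adjusted p here is not independent support for its rise. This comparison changes the genotype as well as the drugs.

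In metformin against wild type, Paqr8 was not past the threshold. Its log2 difference from wild type was 0.96 ± 0.35 (95% interval 0.28 to 1.63), with an edgeR adjusted p of 0.749, and 1.06 ± 0.38 from the untreated mutant, for which no test was made. Without metformin replicate 3, the library with the highest stellate and muscle marker sum, the mean of the metformin group was 1.96 CPM in place of 2.95, and the log2 differences were 0.37 ± 0.32 from wild type and 0.47 ± 0.34 from the untreated mutant. The part of that library's cell makeup in its Paqr8 value was not tested. In the oxymetholone livers metformin went with a lower mean, by a log2 difference of -1.01 ± 0.33 (no test), and 0.372% of genes were lower without overlap. The difference between the effects of oxymetholone with and without metformin was -2.06 ± 0.50 on the log2 scale, again with no test, and -1.48 without metformin replicate 3. Untreated mutants and wild type differed in Paqr8 by -0.10 ± 0.36.

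The other members did not follow Paqr8 in the tests. In none of the 10 comparisons was any of the other 5 called by edgeR, DESeq2 or limma-voom. By edgeR, Pgrmc2, in 2 comparisons, was the one with an unadjusted p under 0.05. For edgeR the share of all genes called was 0.0186% for both drugs against the untreated mutant, 0.0993% for oxymetholone against wild type, and 0% for metformin against the untreated mutant, for untreated mutant against wild type, for metformin against wild type, for both drugs against oxymetholone and for the difference of the effects. With so few genes called anywhere, a count of 0 among 5 genes is no more than the background gives. The intervals below therefore say more than the calls. In the 5 comparisons with no gene called, in the order just given, the genes with an unadjusted p under 0.05 numbered 914, 416, 722, 461 and 483, while DESeq2 called 11, 0, 49, 1 and 3 genes and limma-voom none in any.

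Paqr7, the closest of the set to Paqr8 in function, read 25.2, 20.7 and 22.7 CPM in untreated mutants and 23.6, 43.6, 32.6, 24.3 and 57.6 CPM with oxymetholone. These groups overlapped, since replicates 1 and 4 with oxymetholone lay within the range of the untreated mutants. The log2 difference was 0.67 ± 0.36 (95% interval -0.04 to 1.37, edgeR adjusted p 0.877), so a rise as large as that of Paqr8 lies outside the interval. Without oxymetholone replicate 5 it was 0.44. With both drugs Paqr7 read 29.9, 59.1 and 16.3 CPM, against 31.5, 35.0 and 32.8 with metformin alone. Both-drugs replicate 2 was the highest of all 18 libraries and replicate 3 the lowest. The log2 difference was 0.08 ± 0.39 (adjusted p 0.999), and without both-drugs replicate 2 it was -0.52. Wild type read 25.4, 36.2, 19.5 and 24.4 CPM. The group means of Paqr7 stood in the same order as those of Paqr8. They were 36.35 CPM with oxymetholone, 35.08 with both drugs, 33.1 with metformin, 26.37 in wild type and 22.88 in untreated mutants. Each oxymetholone group overlapped each of the other groups. The metformin livers all lay above the untreated mutants, as 3.94% of genes did, with a log2 difference of 0.53 ± 0.39 (adjusted p 0.927).

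Paqr9 had large spread within groups and no steady change. Untreated mutants read 146, 224 and 177 CPM and oxymetholone livers 119, 94.4, 248, 244 and 133 CPM. The latter spanned both sides of the former, and the log2 difference was -0.12 ± 0.51 (95% interval -1.13 to 0.89, edgeR adjusted p 0.960). With both drugs it read 335, 195 and 52.5 CPM and with metformin 204, 212 and 59.6 CPM, a log2 difference of 0.29 ± 0.58 (adjusted p 0.999). The direction of both differences changed when single libraries were left out, and limma-voom gave 1.30 ± 0.53 for the second (adjusted p 0.936). Wild-type livers read between 105 and 268 CPM.

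Paqr3 was low throughout, between 1.64 and 4.61 CPM over all 18 libraries. Untreated mutants read 2.13, 1.64 and 4.22 CPM, and the 5 oxymetholone values (3.96, 3.37, 2.38, 3.98 and 3.06 CPM) lay within that range. The log2 difference was 0.33 ± 0.33 (95% interval -0.32 to 0.97, edgeR adjusted p 0.877), and 0.56 ± 0.37 for both drugs against metformin (adjusted p 0.999). The first ran from 0.08 without untreated mutant replicate 3 to 0.83 without replicate 4. The second was 0.35 without metformin replicate 4 and 0.99 with limma-voom (adjusted p 0.936). The metformin livers lay just below all 4 wild-type livers, as 1.86% of genes did. Exons of Paqr3 overlap those of Bmp2k on the other strand, and the strand setting of the counts is not given in the sources used here, so some of its reads may belong to Bmp2k.

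Pgrmc1 was by far the most abundant of the set, between 1255 and 4709 CPM in every liver. Untreated mutants read 1776, 3081 and 3909 CPM and oxymetholone livers 2986, 4709, 1255, 1766 and 2646 CPM. Both the highest and the lowest of the 18 libraries were given oxymetholone alone. The log2 difference was -0.13 ± 0.42 (95% interval -0.95 to 0.70, edgeR adjusted p 0.945), and that of both drugs from metformin was 0.05 ± 0.47 (adjusted p 0.999). Each direction turned when 1 library was left out.

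Pgrmc2 was the one member whose means were lower in both oxymetholone groups than in the other 3. Wild type read 52.9, 48.9, 66.6 and 63.8 CPM, untreated mutants 63.2, 43.1 and 51.6 CPM, and metformin livers 45.5, 58.5 and 48.3 CPM. Oxymetholone livers read 40.2, 31.5, 50.1, 41.9 and 46.5 CPM and those given both drugs 46.9, 45.4 and 31.5 CPM. The ranges of oxymetholone and untreated mutants overlapped, with a log2 difference of -0.32 ± 0.20 (95% interval -0.71 to 0.07, edgeR adjusted p 0.877). Both drugs against metformin gave -0.30 ± 0.22 (adjusted p 0.999) and both drugs against the untreated mutant -0.35 ± 0.22 (adjusted p 0.976). Without both-drugs replicate 3, one of the libraries that stood apart, these were -0.14 and -0.19, and without metformin replicate 3 as well the first was -0.04. Without untreated mutant replicate 2 the difference with oxymetholone was -0.17. Against wild type the unadjusted p was 0.0212 with oxymetholone (-0.47 ± 0.18, edgeR adjusted p 0.889) and 0.0328 with both drugs (-0.49 ± 0.21, adjusted p 0.703). The livers with both drugs were all below wild type, as 5.77% of genes were. None of these differences passed the adjusted threshold.

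**Figure D2:**
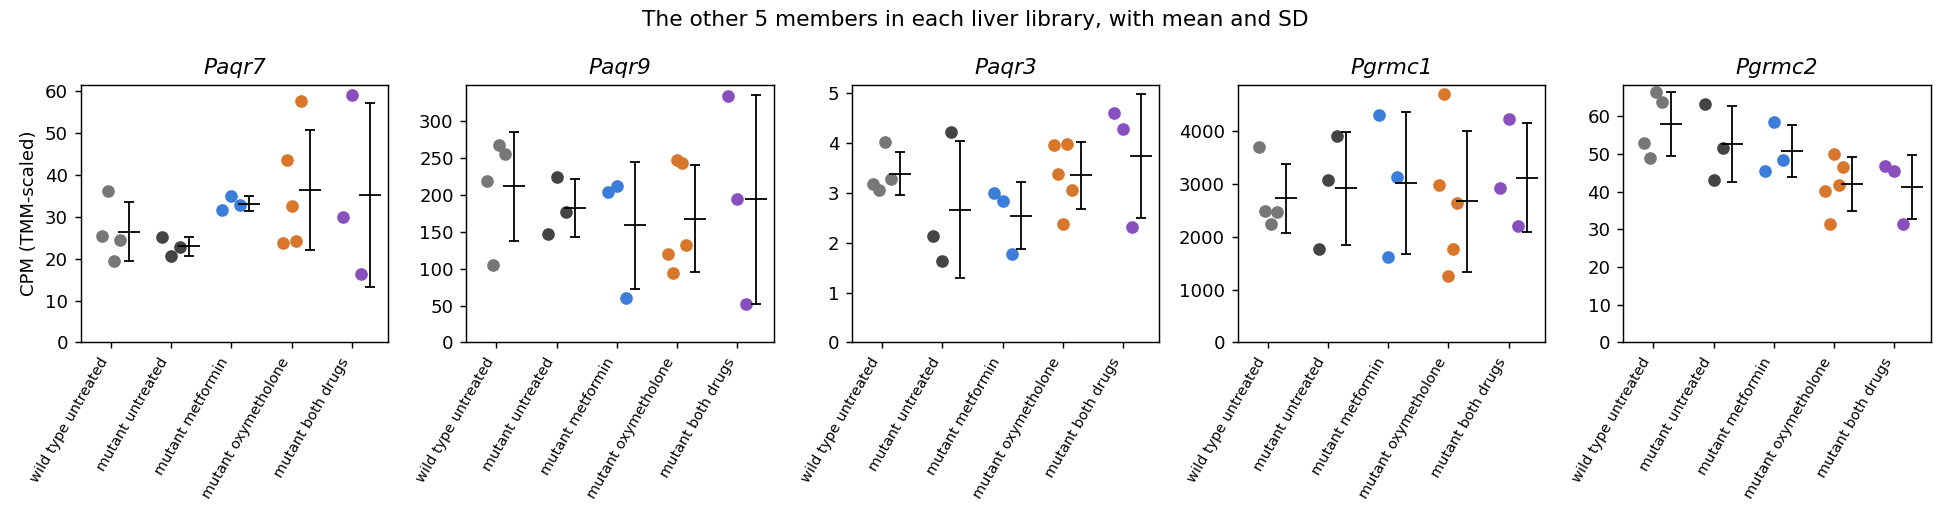
The other 5 genes in each of the 18 libraries, in CPM, each panel with its own axis from 0 and the mean and SD of each group. In each gene the oxymetholone livers overlap the untreated mutants, and the oxymetholone groups of Pgrmc2 centre on 42.1 and 41.3 CPM against 58.1 in wild type.

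**Figure D3:**
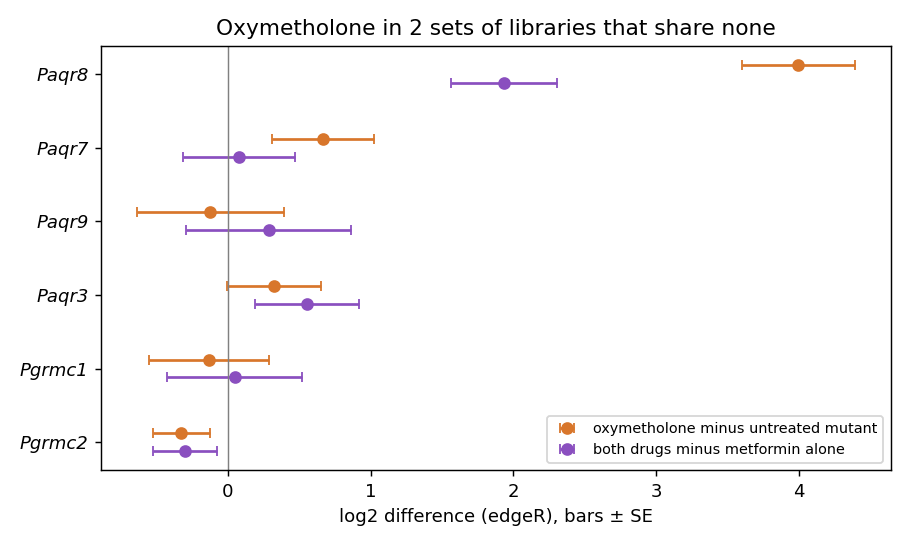
Log2 differences with standard errors from edgeR for oxymetholone against the untreated mutant and for both drugs against metformin alone, which share no library. Paqr8 lies at 3.997 and 1.93, and the other genes between -0.32 and 0.67.

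Genotype alone moved none of them past the threshold. Untreated mutants differed from wild type by -0.34 ± 0.34 on the log2 scale in Paqr3 (edgeR adjusted p 0.973; -0.09 without untreated mutant replicate 3 and -0.84 without replicate 4) and by 0.10 ± 0.44 in Pgrmc1 (adjusted p 0.991). The median of the other 5 genes in oxymetholone against the untreated mutant was -0.12, beside 0.03 for all genes tested, with 2 higher and 3 lower. For both drugs against metformin it was 0.08, beside -0.02, with 4 higher and 1 lower. The authors' deposited table, which called 47 genes for oxymetholone against the untreated mutant, gave log2 fold changes of 0.58 for Paqr7, -0.20 for Paqr9, 0.46 for Paqr3, 0.15 for Pgrmc1 and -0.41 for Pgrmc2, and of the 5 the smallest adjusted p was 0.252.

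Levels can be compared between genes only per length. Averaged over the 18 libraries and divided by exon length in the GENCODE M21 annotation, Pgrmc1 stood at 1541 CPM per kb, Paqr9 at 21.8, Pgrmc2 at 15.02, Paqr7 at 7.31, Paqr8 at 1.69 and Paqr3 at 0.419. Paqr8 had 0.261 CPM per kb in untreated mutants, below Paqr3 in that group (0.352), 0.537 with metformin, where Paqr3 had 0.335, and 4.15 with oxymetholone, between Paqr3 (0.443) and Paqr7 (8.53). Even at its highest it stayed below Paqr7, its closest relative in the set.

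**Figure D4:**
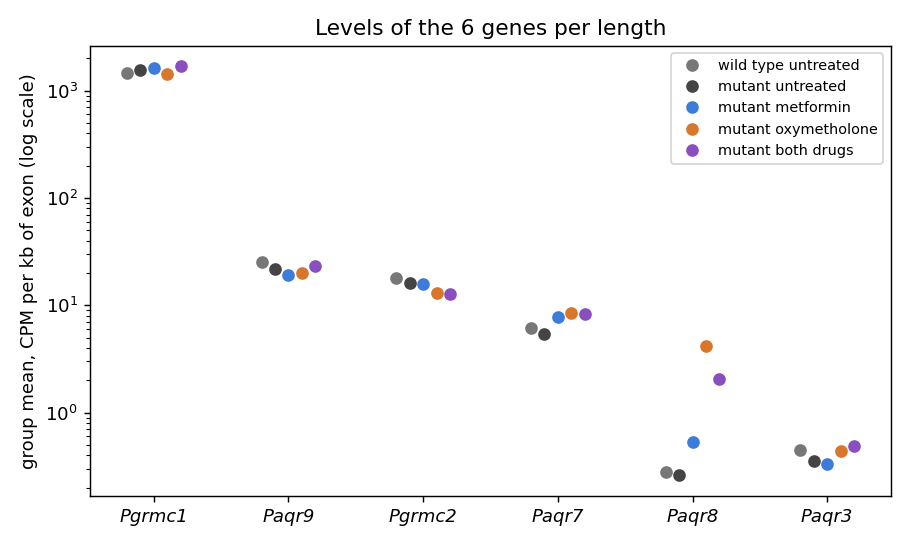
Group means of the 6 genes in CPM per kb of exon, on a log axis. Paqr8 is the lowest of the set in wild type and in untreated mutants (0.261) and lies above Paqr3 in the other 3 groups, reaching 4.15 with oxymetholone.

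Across the 18 libraries Pearson's r of log2 CPM with Paqr8 was 0.373 for Paqr7, 0.254 for Paqr3, -0.125 for Pgrmc1, -0.170 for Paqr9 and -0.658 for Pgrmc2. These values are a description, since the libraries fall into 8 with oxymetholone and 10 without, and pooling them mixes the drug into the correlation. Within the 8, r lay between -0.272 and 0.091, with exact permutation p from 0.482 to 0.975 (two-sided). Within the 10, the largest was that of Paqr7, r = 0.645 and Spearman's rho = 0.648, with permutation p of 0.0247 and 0.0481. After adjustment over the 10 relations computed these were 0.247 and 0.481, and r was 0.503 without the 2 libraries farthest from the median of Paqr8. The 10 mix wild type, untreated mutants and metformin livers, and the 8 mix livers with and without metformin. Among the 10, the means of both genes were highest with metformin (Paqr8 2.95 CPM, Paqr7 33.1 CPM). The permutations did not keep these groups apart, so these r and p include differences between them.

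The genes whose log2 CPM was most like that of Paqr8 over the 18 libraries, among 11375 with a mean log2 CPM of at least 0, were Slco4c1 (r = 0.936), an organic anion transporter, Wif1 (0.928), a secreted Wnt inhibitor, Hebp2 (0.904), a haem-binding protein, Lncbate1 (0.903), a long non-coding RNA, Rab38 (0.878), a small GTPase, Zfp9 (0.870), a zinc finger protein, Scmh1 (0.868), a Polycomb protein, and Catsperd (0.858), a subunit of a sperm calcium channel. Wif1 went from a mean of 0.711 CPM in untreated mutants to 31.5 with oxymetholone and 16.1 with both drugs. Slco4c1 went from 0.0904 to 12.2 and 4.10 CPM. It averaged 1.285 CPM with metformin, and its livers with oxymetholone (from 1.86 CPM) overlapped those without it (up to 3.30 CPM). At the other end were Tmem62 (r = -0.945), Ubr1 (-0.904), a ubiquitin ligase, Dsg1c (-0.858), a desmosomal cadherin, and Nek4 (-0.838), a kinase. Tmem62 went from 20.3 to 3.54 and 6.37 CPM. The floor is a mean over all 18 libraries, so a gene near 0 without oxymetholone can pass it through its values with the drug. Lncbate1, for instance, read at most 0.506 CPM without oxymetholone and 4.28 to 25.7 CPM with it. Paqr8 was itself chosen for its rise with oxymetholone, so the ranking favours genes that rise with the drug. These r include the difference between groups. With each group's mean taken out, r was 0.780 for Zfp9, 0.642 for Slco4c1, 0.556 for Scmh1 and 0.528 for Hebp2, and it was 0.148 for Catsperd, 0.021 for Wif1, -0.009 for Rab38 and -0.334 for Lncbate1. For Tmem62 it was -0.412. With Spearman's rho in place of Pearson's r, 4 of the first 8 genes were kept.

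**Figure D5:**
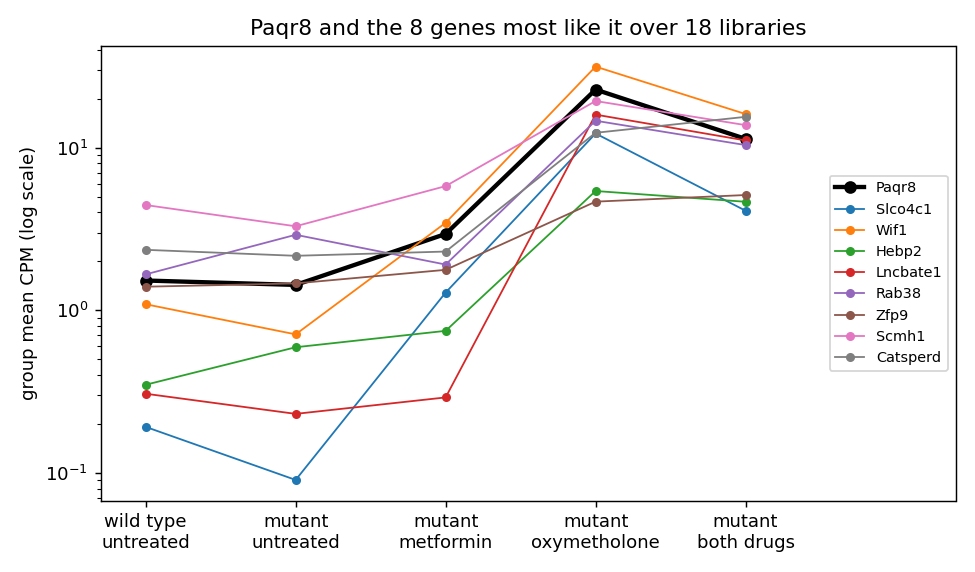
Group means, in CPM on a log axis, of Paqr8 and of the genes most like it over the libraries. The means of Slco4c1, Wif1 and Paqr8 are higher in both oxymetholone groups than in the other groups, while single livers of Slco4c1 overlap.

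None of the measured genes next to Paqr8 on chromosome 1 passed the threshold. In RefSeq order those measured were Pkhd1, Gm15795 and Mcm3 on one side and Tram2, Tmem14a and Gm28836 on the other. Their log2 differences with oxymetholone ran from -0.50 (Gm15795) to 0.69 (Tram2), with edgeR adjusted p of 0.877 to 0.946. With both drugs against metformin they ran from -0.57 (Tram2) to 0.79 (Gm15795), all with an adjusted p of 0.999.

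Lists of related genes were read for the same comparisons. They hold 83 genes, of which 75 were measured. No gene of any list was called by edgeR in any comparison. In oxymetholone against the untreated mutant 3 of the 75 had an unadjusted p under 0.05, against 773 of all 16115 genes, and in both drugs against metformin 3 did, against 552. Over the 10 comparisons this number ran from 1 to 9. DESeq2 called Cyp21a1 in oxymetholone and in both drugs, each against the untreated mutant and against wild type, and no other listed gene. Of all 16115 genes, DESeq2 called 77 in oxymetholone and 43 in both drugs against the untreated mutant. Against wild type it called 89 and 75. Limma-voom called Adcy6, an adenylyl cyclase, in both drugs against the untreated mutant, and no other. In that comparison limma-voom called 16 genes in all. Of all genes, 52.9% were higher with oxymetholone than in untreated mutants (median log2 difference 0.03) and 48.1% with both drugs than with metformin (median -0.02).

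Of the other PAQR genes, 5 of 6 were higher with oxymetholone than in untreated mutants (median log2 difference 0.23) and 4 of 6 with both drugs than with metformin (median 0.16), none past the threshold. Mmd2 had log2 differences of 0.30 ± 0.76 and 1.02 ± 0.86. Paqr6, a membrane progestin receptor expressed mostly in the nervous system, stayed under 1 CPM in every liver, with means of 0.254 CPM in untreated mutants and 0.379 with oxymetholone.

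Of the relatives and partners of Pgrmc1 and Pgrmc2, 5 of 10 were higher with oxymetholone (median 0.01) and 4 of 10 with both drugs (median -0.05). Por, the reductase that passes electrons to cytochrome P450 enzymes, had a mean of 160 CPM in untreated mutants and 313 with oxymetholone (log2 difference 0.97 ± 0.61, edgeR adjusted p 0.877), and 165 with metformin against 335 with both drugs (1.02 ± 0.66, adjusted p 0.999). The libraries overlapped in both comparisons. Cyp51, a sterol demethylase that Pgrmc1 binds, had a mean of 537 CPM in untreated mutants and 295 with oxymetholone (-0.86 ± 0.35, adjusted p 0.877). Metformin against the untreated mutant gave -0.99 ± 0.41 (edgeR adjusted p 0.785) and both drugs against metformin -0.30 ± 0.40 (adjusted p 0.999).

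Of 9 steroid receptors listed, 6 were measured. In oxymetholone against the untreated mutant 3 were higher and 3 lower (median -0.01). Nr1i2, a nuclear receptor for pregnanes and other foreign steroids, averaged 41.7 CPM without treatment in the mutants, against 49.8 under oxymetholone. The nuclear progesterone receptor is not analysed here.

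Of the G protein and cyclic AMP genes, 17 of 22 were higher with oxymetholone than in untreated mutants (median 0.15) and 6 of 22 with both drugs than with metformin (median -0.16). The counts moved with the reference group: 5 of 22 were higher in untreated mutants than in wild type, 7 of 22 with oxymetholone than in wild type, and 16 of 22 with metformin than in untreated mutants. Gnai1, an inhibitory G protein subunit, averaged 18.3 CPM with metformin and 8.93 with both drugs (-1.04 ± 0.65, edgeR adjusted p 0.999), with metformin replicate 3 the highest at 31.6 CPM. The genes of Paqr3 and Paqr9 partners had counts of 11 of 14 higher with oxymetholone (median 0.31) and of 1 of 14 with both drugs than with metformin (median -0.22). Of these, 1 of 14 was higher in untreated mutants than in wild type, and 6 of 14 with oxymetholone than in wild type (median -0.06). Spry2, an inhibitor of Ras signalling, had its highest value, 6.08 CPM, in the same library, and the lowest metformin liver read 1.05 CPM. No difference of any of these genes passed the threshold, and the part of that library in these medians was not tested.

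Of 21 genes of progestin and steroid metabolism listed, 17 were measured, of which 8 were higher with oxymetholone (median -0.12) and 7 with both drugs (median -0.06). Cyp21a1, the steroid 21-hydroxylase, was the furthest: its mean was 0.245 CPM in untreated mutants and 1.99 with oxymetholone, and 0.717 with metformin and 3.46 with both drugs. The log2 differences were 3.01 ± 0.88 (edgeR adjusted p 0.555) and 2.29 ± 0.86 (adjusted p 0.999). The livers with both drugs (1.99 to 6.35 CPM) lay above those with metformin (0.396 to 0.9999 CPM), as 2.24% of genes did. Its counts are low and the mouse genome holds a near-identical pseudogene of it, so its level is uncertain.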

How the data were processed

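RNA-seq counts of 18 libraries of male mouse liver were used. Of 20 labelled samples, 2 are not analysed here (untreated mutant 1 and metformin 2). Numbering follows the order of the sample records. The authors deposited raw counts per gene, on GRCm39, per the submitters' processing notes. Aligner, counter and strand setting, not given in the sources used here, could shift counts of overlapping genes. The deposited CPM signal equals CPM scaled with edgeR's TMM factors (0.798 to 1.31, largest relative difference 3.3e-07 for the 6 genes). The authors also deposited log2 residuals, which were not used, and log2 fold changes with p-values, quoted where named.

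Values were computed from the counts with edgeR 4.0.16 (R 4.3.3): TMM factors, filterByExpr, after which all genes were left, and robust quasi-likelihood estimation on all 18 libraries with a coefficient for each of the 5 groups (common dispersion 0.181), and Benjamini-Hochberg adjustment over 16115 genes with a threshold of 0.05. Intervals are 1.96 standard errors on each side, and the prior count for log2 CPM was 2. DESeq2 1.42.0 and limma-voom (limma 3.58.1), other scalings and filters, compared groups alone and leaving out each library were alternatives. Total counts of 20.2 to 32.7 M limit genes at the level of Paqr8. Permutation tests used 100000 resamples for 10 libraries and were exact for 8. Promoter sequences, neighbouring genes and symbols are from RefSeq (GRCm38.p6), which held promoters for 5 of the 6 genes and not for Paqr9, and lengths are from GENCODE M21, so no gene coordinates of the files' build are given. The members and the gene lists were chosen with earlier results of these data known. Adcy6 was named after its result was seen. Other genes named are the members, up to 3 genes of each list with the smallest p in both drugs against metformin, the 8 highest and 4 lowest r with Paqr8, and 3 measured neighbours on each side.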

Additional observations from a re-analysis of the deposited data

Results flagged for a closer look

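Pgrmc1 in wild type replicate 1 read 3708 CPM, while the other 3 wild-type livers read between 2246 and 2491 CPM. Its gap to the next library took most of the range of its group. Of 12 groups of 4 or more libraries checked this way, chance marks about 1 in 20.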

How the results depend on the processing

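Of 278 recomputed values with a test, 265 held their direction and side of the threshold, and of 107 without a test, 104 held their direction within the replicate spread. In both drugs against metformin, Paqr8 was past the threshold with DESeq2 (1.94, adjusted p 0.000778) and with limma-voom (2.15, adjusted p 0.0371). The count of members called was thus 1 with each, against 0 with edgeR. Of all 16115 genes, DESeq2 called 10, limma-voom 3 and edgeR 0. The member called is the gene the set was built around, so the count says nothing of the other members. Paqr8 was chosen with the levels of all groups known, so these calls are not independent support for its rise. Leaving out 1 library gave 1.65 to 2.52, with adjusted p from 0.0544 to 0.715, and leaving out metformin replicate 3 and both-drugs replicate 3 together, an alternative chosen after seeing the data, gave 2.37 (adjusted p 0.109). Paqr8 in untreated mutants against wild type was 0.032 with limma-voom and between -0.29 and 0.02 when 1 library was left out, against -0.10. Leaving out 1 library gave ranges that cross 0 for both drugs against metformin in Paqr7 (-0.52 to 0.43), Paqr9 (-0.36 to 0.74) and Pgrmc1 (-0.25 to 0.39), for oxymetholone against untreated mutants in Paqr9 (-0.312 to 0.051) and Pgrmc1 (-0.43 to 0.14), and for untreated mutants against wild type in Pgrmc1 (-0.17 to 0.36). Pgrmc1 in both drugs against metformin was -0.073 without both of those libraries. The difference of the oxymetholone effects in Paqr8 was -2.34 to -1.48 when 1 library was left out. With no floor on the mean level, 5 of the 8 genes most like Paqr8 were kept. The cause was not tested. No paired analysis was possible because the labels carry no replicate numbers.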
